A study of Homo sapiens with 4 samples.

Results

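The SMAD family and its SMURF ligases, 10 genes in all, were examined in LNCaP cells with and without overexpressed HOXD13. The members were taken by gene symbol, namely SMAD1, SMAD2, SMAD3, SMAD4, SMAD5, SMAD6, SMAD7, SMAD9, SMURF1 and SMURF2, and all 10 were found among the 19205 genes of the deposited table. LNCaP is an established line derived from a human prostate tumour. Its polyadenylated RNA was sequenced in 4 libraries. Empty-vector controls gave 2 libraries, and cells made to overexpress HOXD13, a homeobox transcription factor, gave the other 2. Lentiviral infection and puromycin selection were common to both groups, and both were grown in RPMI-1640 with fetal bovine serum. The labels name neither clones nor separate infections, and do not say whether replicates came from separate cultures. P-values therefore reflect only how far these libraries spread, and that spread may be technical. The series title places SMAD1 at the centre of the comparison, and the question here was which SMAD and SMURF transcripts differed with HOXD13.

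SMAD proteins carry signals of the TGF-beta superfamily from the cell surface to the nucleus. Activated type I receptors phosphorylate the receptor-regulated SMADs, of which SMAD1, SMAD5 and SMAD9 serve mainly BMP receptors and SMAD2 and SMAD3 serve TGF-beta and activin receptors. They assemble with the common partner SMAD4 and bind DNA. SMAD6 and SMAD7 are inhibitory SMADs, which are themselves induced by the pathway and block it. SMURF1 and SMURF2 are HECT-domain ubiquitin ligases that bind SMADs and, through the inhibitory SMADs, the receptors. All of these act mostly through protein modification, and the values below are RNA levels alone.

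Upstream sequence is shown for the gene named in the title and for the one member that passed the test below, because SMAD proteins bind short, well-known DNA letters. RefSeq (GRCh38.p14) windows of gene starts were available for all 10 members, 21 windows in all, and the 250 bases before each start were searched on both strands. Capitals mark matches to GTCTAGAC, a palindromic SMAD box, or to GGCGCC, a GC-rich SMAD site. The SMAD1 window, 1 of 5 for that gene, lies at chr4:145482555-145482804 on the plus strand. The SMAD6 window lies at chr15:66701986-66702235 on the plus strand.
SMAD1: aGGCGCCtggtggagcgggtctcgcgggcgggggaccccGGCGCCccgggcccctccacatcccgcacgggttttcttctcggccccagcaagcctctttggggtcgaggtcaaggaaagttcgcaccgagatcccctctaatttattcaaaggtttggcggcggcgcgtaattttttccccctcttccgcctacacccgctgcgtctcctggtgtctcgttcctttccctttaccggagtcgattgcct
SMAD6: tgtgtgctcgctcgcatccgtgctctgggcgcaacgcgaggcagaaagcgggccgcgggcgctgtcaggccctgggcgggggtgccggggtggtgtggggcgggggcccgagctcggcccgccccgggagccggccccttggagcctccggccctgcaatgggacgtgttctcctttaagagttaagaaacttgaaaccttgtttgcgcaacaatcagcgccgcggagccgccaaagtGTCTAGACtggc
The SMAD6 window held GTCTAGAC at 12 to 5 bases before the start that RefSeq gives for that window, which lies 8 bases from the start of the GENCODE counterpart of the counted transcript. Of all 35116 windows, 64 (0.182%) held these letters, and SMAD6 was the only member among them. Both matches to GGCGCC in the printed SMAD1 window lay 249 to 244 and 211 to 206 bases before the start. GGCGCC was present in 16.4% of all windows and in 6 of the 21 member windows, which belong to SMAD1, SMAD2, SMAD3 and SMAD4. The short SMAD box CAGAC, searched separately, was found in 38.0% of all windows and in 6 of the 21 member windows, which belong to SMAD1, SMAD3, SMAD7 and SMURF1. Posterior HOX proteins such as HOXD13 prefer sites like CAATAAA and TCGTAAA, which were in 3.67% and 0.444% of all windows and in 0 of the 21 member windows. These matches describe letters only, and no binding was measured.

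Total expected counts were 6881110 to 8530487 per library. HOXD13 had no entry in either empty-vector library, which was taken as 0. In the HOXD13 libraries it had 88 and 104 counts, or 4.41 and 5.33 FPKM. The luminal prostate marker KLK3, which encodes prostate-specific antigen, was at 2044 and 2074 FPKM with the empty vector and rose to 3140 and 3255 FPKM with HOXD13 (log2 fold change 0.61, edgeR adjusted p = 5.25e-18). Of 10 luminal markers 6 rose and 1 fell, against 16.0% of all tested genes called in either direction. The summed level of the 10 luminal markers, most of it KLK3, was 3701 and 3741 FPKM against 5068 and 5176 FPKM with HOXD13. Among fibroblast, leukocyte and endothelial markers, 6 of 11, 7 of 9 and 6 of 7 were listed. Their summed levels were 63.1 to 66.7, 37.5 to 41.4 and 3.84 to 3.86 FPKM with the empty vector, and 75.5 to 79.1, 42.3 to 43.9 and 5.46 to 5.62 FPKM with HOXD13. The leukocyte genes CD3E and ITGAM were at 0 throughout, the pericyte and fibroblast receptor gene PDGFRB at 0.08 to 0.17 FPKM and the endothelial receptor gene KDR at 0 to 0.12 FPKM. Other genes of the same lists were detected. COL1A1 was at 5.79 to 6.82, CD68 at 6.85 to 9.65, PTPRC at 0.80 to 1.64 and PECAM1 at 0.60 to 1.04 FPKM. Of the tested fibroblast, leukocyte and endothelial markers, 2 of 3, 0 of 3 and 1 of 4 were called, all higher with HOXD13. Of all tested genes, 7.91% were called higher. The sums rested on a few genes, with COL6A1 at 42.5 to 56.2 and COL6A2 at 11.5 to 16.7 FPKM, both collagen VI chains, lysozyme (LYZ) at 29.6 to 35.2 FPKM and VWF at 2.26 to 3.46 FPKM. COL6A1, COL6A2 and VWF were the called genes (log2 fold changes 0.24, 0.31 and 0.52), and LYZ was not called. The COL6A2 call was lost without empty-vector replicate 2 (edgeR adjusted p = 0.293) and the COL6A1 call without empty-vector replicate 1 (0.0995). The part of such marker genes in the results below was not tested.

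All 10 genes were expressed and passed the low-count filter. SMAD5 was the most abundant, at 16.9 to 18.7 FPKM over the 4 libraries, and its range lay above that of SMAD2, the next in order. FPKM scales reads to transcript length and library depth, so levels can be set side by side between genes. SMAD2, SMAD4, SMURF2, SMAD1, SMAD9 and SMURF1 followed, with means over the 4 libraries from 8.62 down to 6.39 FPKM, and each overlapped its neighbour in range. SMAD6, SMAD7 and SMAD3 formed the low end, with means of 3.84, 3.07 and 2.63 FPKM. The range of SMAD6 lay below that of SMURF1, and SMAD6, SMAD7 and SMAD3 each overlapped the next. Among all tested genes, the mean of SMAD5 stood at percentile 65.6 and that of SMAD3 at 19.9.

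**Figure D1:**
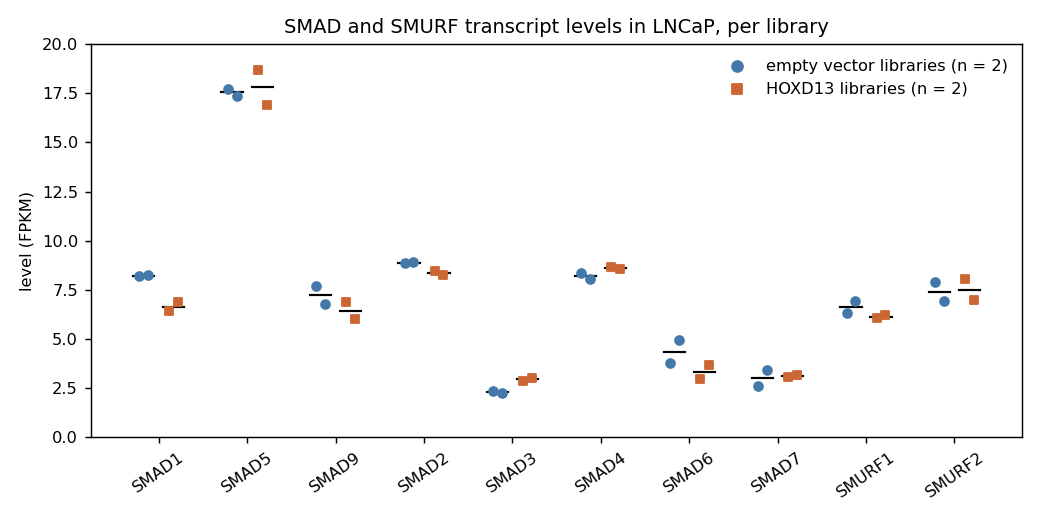
Level of each gene in FPKM (vertical axis, from 0) in each library, with circles for the empty vector, squares for HOXD13 and a bar at each group mean of 2 libraries. SMAD5 stood above all other members at 16.9 to 18.7 FPKM, and both HOXD13 squares of SMAD1 (6.42 and 6.88) lay below both empty-vector circles (8.22 and 8.23).

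With HOXD13, SMAD6 was lower and no other member was called, by the edgeR quasi-likelihood test with Benjamini-Hochberg adjustment over 14112 genes. That is 1 of 10 members, against 16.0% of all tested genes called in either direction, 8.11% called lower and 7.91% called higher. At an unadjusted p under 0.05 there were 3 members, SMAD1, SMAD3 and SMAD6, against 28% of all genes. The FPKM of both groups did not overlap for 6 of 10 members, 4 lower and 2 higher with HOXD13, against 54.1% of all tested genes, of which 24.8% were lower and 29.3% higher, as shares of all tested genes. The shares of members past these marks were near those of all genes. The median log2 fold change was -0.11 over the members and 0.00379 over all tested genes. The median size of the change, regardless of sign, was 0.12 over the members and 0.14 over all genes. In bulk RNA a lower level per cell and fewer cells with the transcript cannot be told apart.

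**Figure D2:**
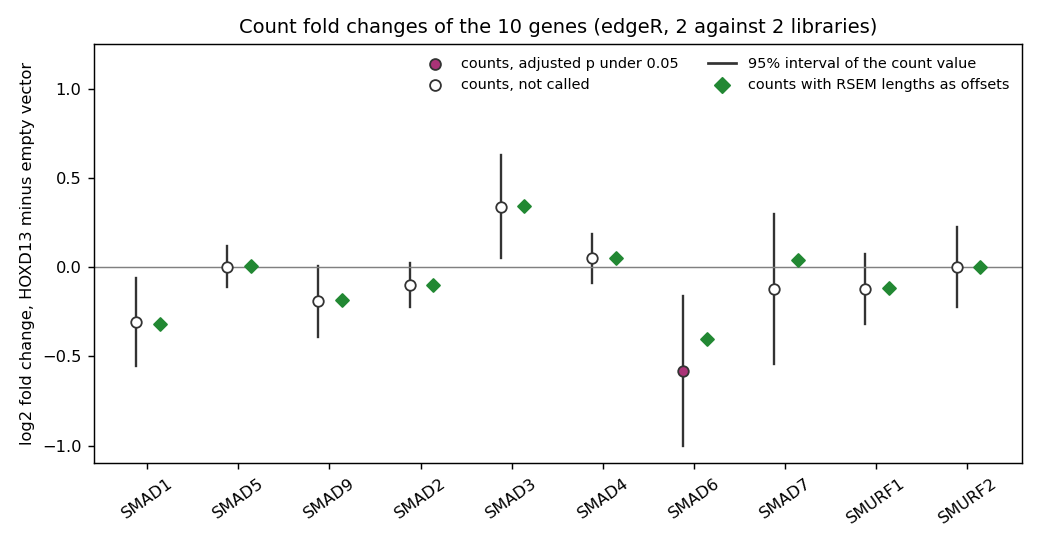
Log2 fold change of each gene, HOXD13 minus empty vector (vertical axis), with circles and lines for the count test and its 95% interval, filled where the adjusted p was under 0.05, and diamonds for the same test with RSEM lengths as offsets. SMAD6 is the only filled circle, at -0.58, and its diamond is at -0.41.

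Among the BMP-side SMADs, SMAD1 was lower in both HOXD13 libraries but was not called, while SMAD5 showed almost the same mean in both groups. For SMAD1 (gene ID 4086) the empty-vector counts were 192 and 172, and the HOXD13 counts 168 and 176. Per length and depth these were 8.22 and 8.23 FPKM against 6.42 and 6.88 FPKM. The groups did not overlap, and the empty-vector libraries differed by far less than the HOXD13 libraries. The difference between the group means was -19.1% in FPKM and the log2 fold change of counts was -0.31 (SE 0.121, 95% interval -0.56 to -0.06). It missed the threshold (edgeR adjusted p = 0.0795). Across 12 alternative settings its log2 fold change stayed between -0.36 and -0.26, with adjusted p from 0.0589 to 0.308, and none called it. The lowest and highest of these fold changes came from leaving out HOXD13 replicate 2 and HOXD13 replicate 1.

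SMAD5 (gene ID 4090), the BMP-side SMAD with the highest level, was at 17.7 and 17.4 FPKM with the empty vector and at 18.7 and 16.9 FPKM with HOXD13. Its groups overlapped, with the HOXD13 libraries on either side of the empty-vector pair. The log2 fold change was 0.0029 (95% interval -0.11 to 0.12, edgeR adjusted p = 0.983), and the interval spans changes from 0.926-fold to 1.08-fold. SMAD9 (gene ID 4093), the third BMP-side SMAD, was at 7.71 and 6.77 FPKM against 6.87 and 6.03 FPKM. Its groups overlapped, and replicate 1 was the higher library in both. SMAD9 had a log2 fold change of -0.19 (SE 0.0977, edgeR adjusted p = 0.20). The counts of SMAD5 and SMAD9 were fractional, which means that RSEM divided some reads between these and other genes, and they are uncertain by that share. The counts of SMAD1 were whole.

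The makeup of the BMP-side pool is described by shares of summed FPKM, which depend on each other because they add up to the whole. Summed FPKM of SMAD1, SMAD5 and SMAD9 were 33.7 and 32.4 with the empty vector and 32.0 and 29.8 with HOXD13. SMAD1 made up 24.4% and 25.4% of that sum with the empty vector, and 20.1% and 23.1% with HOXD13. SMAD5 took 52.7% and 53.7%, then 58.4% and 56.7%. The SMAD1 share was lower and the SMAD5 share higher in both HOXD13 libraries, and the SMAD9 shares overlapped. The ratio of SMAD1 to SMAD5 was 0.464 and 0.474 with the empty vector against 0.344 and 0.407 with HOXD13. With 2 libraries a group, the smallest p of an exact permutation test is 0.333, so these shares carry no test.

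On the TGF-beta side, SMAD3 was the member with the highest fold in the upward direction, and it was not called either. SMAD3 (gene ID 4088), which binds DNA directly, was counted 114 and 98 times in the controls and 155 and 159 times with HOXD13. Its levels were 2.35 and 2.25 FPKM against 2.88 and 3.02 FPKM. The groups did not overlap, and each pair of replicates lay close together. The log2 fold change was 0.34 (SE 0.141, 95% interval 0.05 to 0.63, edgeR adjusted p = 0.103). Over 12 alternatives the value ranged from 0.26 to 0.38 and the adjusted p from 0.0832 to 0.329. All SMAD3 counts were whole.

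SMAD2 (gene ID 4087), the more abundant SMAD of this branch, was at 8.87 and 8.91 FPKM with the empty vector and at 8.48 and 8.23 FPKM with HOXD13. Both HOXD13 libraries were lower, by a small margin. The log2 fold change was -0.10 (SE 0.0608, edgeR adjusted p = 0.285). SMAD3 made up 20.9% and 20.2% of the summed FPKM of SMAD2 and SMAD3 with the empty vector, and 25.4% and 26.8% with HOXD13. Their sums were 11.22 and 11.16 FPKM with the empty vector, and 11.36 and 11.25 FPKM with HOXD13, higher in both HOXD13 libraries by a narrow margin. SMAD4 (gene ID 4089), the partner shared by both branches, was at 8.36 and 8.06 FPKM against 8.64 and 8.55 FPKM, also without overlap. Its log2 fold change was 0.05 (95% interval -0.09 to 0.19, edgeR adjusted p = 0.691), and SMAD2 and SMAD4 had fractional counts.

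SMAD6, the BMP-induced inhibitory SMAD, fell by 0.58 on the log2 scale in counts, a smaller change in FPKM. For SMAD6 (gene ID 4091) the control counts were 76 and 95 and the HOXD13 counts 58 and 76, all whole. The raw counts meet at 76, before any scaling to library size, and the HOXD13 libraries are the larger ones. In FPKM the levels were 3.78 and 4.94 against 2.97 and 3.66. The groups did not overlap in FPKM, but empty-vector replicate 1 and HOXD13 replicate 2 lay close together. The log2 fold change of counts was -0.58 (SE 0.205, 95% interval -1.0 to -0.16), with an edgeR adjusted p of 0.0493, just under the threshold of 0.05. The call was lost without empty-vector replicate 2 (edgeR adjusted p = 0.473, log2 fold change -0.33) and without HOXD13 replicate 1 (0.337, -0.38). Without empty-vector replicate 1 or HOXD13 replicate 2 the log2 fold change was -0.81 in both fits.

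The length that RSEM assigned to SMAD6 was shorter in both HOXD13 libraries. RSEM averages the lengths of a gene's transcripts by their estimated use, and SMAD6 has 3 transcripts in the deposited tables. That length was 2620 and 2783 bases with the empty vector and 2289 and 2487 bases with HOXD13, without overlap. Each pair of replicates differed by more than the gap between the groups. The lengths of SMAD1 and SMAD2 did not overlap either, at far smaller shifts, and the share of all genes without overlap was not counted. Of 6081 tested genes with several transcripts, 77 (1.27%) had a shift of mean length at least as large as that of SMAD6. Those genes were not matched to SMAD6 for depth. FPKM divides by the RSEM length, so the FPKM difference of SMAD6 is smaller than its count difference. With the lengths as offsets in the edgeR fit, the SMAD6 log2 fold change was -0.41 and it was not called (adjusted p = 0.188). With limma on log2(FPKM + 1) it was -0.31 (adjusted p = 0.294). Over all 12 alternatives SMAD6 was called in 7, with adjusted p from 0.0113 to 0.473. The isoform shares themselves were not analysed here.

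**Figure D3:**
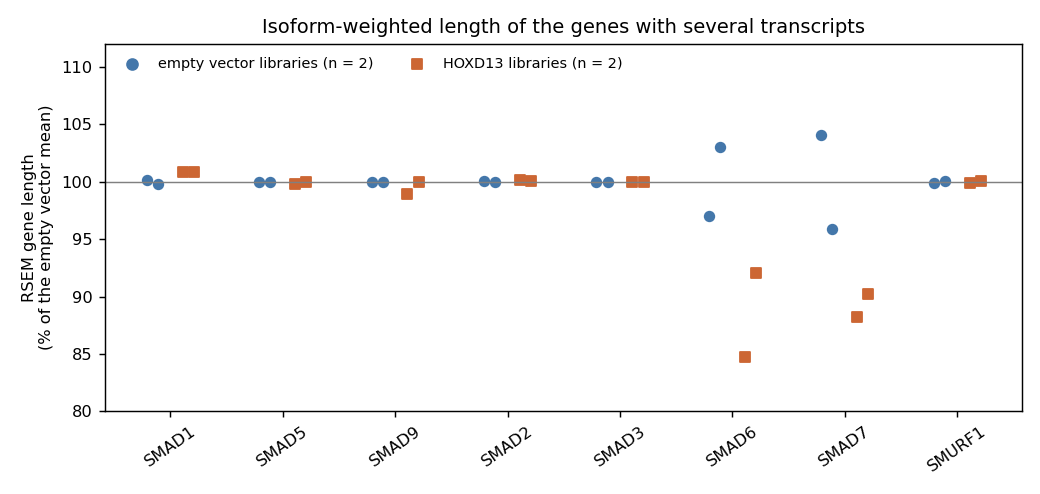
RSEM gene length in each library as a percentage of the mean of the empty-vector libraries (vertical axis, which does not start at 0), for the 8 members with several transcripts. SMAD6 and SMAD7 are the genes whose HOXD13 squares lie well below 100, at mean lengths of 2388 and 2638 bases against 2701 and 2957 bases.

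SMAD7 (gene ID 4092), the inhibitory SMAD that acts on both branches, showed the same kind of length shift without a clear change of level. Its RSEM length was 3078 and 2836 bases with the empty vector and 2608 and 2668 bases with HOXD13, and 87 genes (1.43%) shifted at least as much. The empty-vector lengths differed from each other by more than the gap between the groups. Counts were 62 and 67 against 68 and 71, and levels were 2.62 and 3.42 FPKM against 3.05 and 3.19 FPKM. The HOXD13 levels lay between the empty-vector levels. The log2 fold change was -0.12 in counts (95% interval -0.55 to 0.30, edgeR adjusted p = 0.763) and 0.04 with the lengths as offsets (adjusted p = 0.932). At 62 to 71 counts per library the interval still spans changes of 0.685-fold to 1.23-fold. The ratio of SMAD6 to SMAD7 in FPKM was 1.44 in both empty-vector libraries, and 0.974 and 1.15 with HOXD13. The sums of both overlapped between the groups, at 6.40 and 8.36 FPKM against 6.02 and 6.85 FPKM. By comparison, the SMAD1 length was 3036 and 3025 bases against 3056 bases in both HOXD13 libraries, and that of SMAD3 was 6256 bases in all 4.

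**Figure D4:**
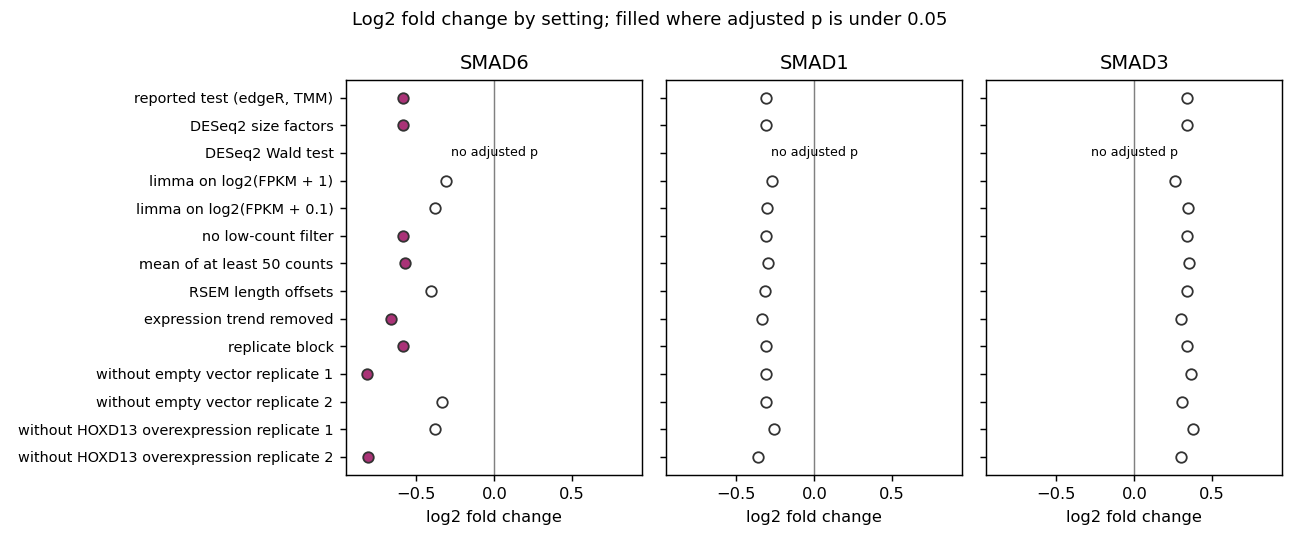
Log2 fold change of SMAD6, SMAD1 and SMAD3 (horizontal axis) under the reported test and each alternative (rows), filled where the adjusted p was under 0.05. SMAD6 ranges from -0.81 to -0.31 with filled and open circles, and every circle of SMAD1 and SMAD3 is open.

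Neither SMURF ligase was called. SMURF1 (gene ID 57154), which targets BMP-side SMADs among other proteins, was at 6.31 and 6.94 FPKM with the empty vector and at 6.08 and 6.21 FPKM with HOXD13. Both HOXD13 libraries were lower, with a log2 fold change of -0.12 (SE 0.0966, edgeR adjusted p = 0.458). SMURF2 (gene ID 64750), the ligase also recruited to receptors by SMAD7, was at 7.90 and 6.93 FPKM against 8.06 and 6.96 FPKM. Its spread within each group exceeded the difference between them, and replicate 1 was the higher library in both. SMURF2 had a log2 fold change of 0.00023 (95% interval -0.23 to 0.23, edgeR adjusted p = 0.999), with fractional counts. The SMURF sum was 14.2 and 13.9 FPKM with the empty vector and 14.1 and 13.2 FPKM with HOXD13, overlapping. Among 5 tested sister ligases of the NEDD4 family, NEDD4L rose from 33.3 ± 0.940 to 37.8 ± 0.0849 FPKM (SD over 2 libraries), a log2 difference of 0.17 (edgeR adjusted p = 0.00205), and 4 were not called (20% called, against 16.0% of all genes). The NEDD4L call was lost without empty-vector replicate 1 (edgeR adjusted p = 0.0954), and its counts were fractional.

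Beyond the 10 genes, 131 genes of 9 lists of SMAD regulators, partners and readouts were listed and 110 were tested, of which 7 rose, 15 fell and 88 were not called. That is 20% called, against the 16.0% of all genes, with a median log2 fold change of -0.04. The median was -0.06 without empty-vector replicate 1 and -0.05 without empty-vector replicate 2. With limma on log2(FPKM + 1) there were 2 higher and 6 lower among 106 tested list genes. That fit called 659 of 13520 genes in all. TRAP1 is among the falls and is no SMAD regulator, as described below. Left out, a choice made after seeing the data, it leaves 109 tested genes with 7 higher and 14 lower (19.3% called).

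Of 16 tested genes of the list of SMAD anchors, receptor adaptors and nuclear transport, 0 rose, 4 fell and 12 were not called (25% called, against 16.0% of all genes). The export receptor gene XPO1, at 61.3 ± 1.87 FPKM in controls and 53.1 ± 1.80 with HOXD13 (SD, n = 2), fell by 0.22 on the log2 scale (edgeR adjusted p = 0.000217). The nuclear pore gene NUP153, at 25.0 ± 0.0636 and then 21.8 ± 0.113 FPKM, fell by 0.22 on the log2 scale. The import receptor gene KPNB1 fell from 170 ± 2.63 to 147 ± 1.41 FPKM (log2 fold change -0.21, edgeR adjusted p = 7.07e-06). XPO1 and NUP153 were each called in 11 of 13 alternative settings, with adjusted p of up to 0.0740 and 0.0992, and KPNB1 in all 13. The import receptor gene IPO8 also fell (log2 fold change -0.18, edgeR adjusted p = 0.0372), a call lost without control replicate 1 (0.0608), control replicate 2 (0.199) or replicate 2 of HOXD13 (0.376). Other transport genes of the list, IPO7, XPO4, RANBP3 and NUP214, were not called (edgeR adjusted p = 0.0596, 0.239, 0.107 and 0.128). These receptors and pores carry many cargoes besides SMADs.

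Of 19 tested corepressors and other inhibitors, 1 rose, 5 fell and 13 were not called (31.6% called, against 16.0% of all genes). With both limma fits 1 rose and 2 fell, where 659 and 647 of 13520 genes were called in all. With the expression trend removed 2 rose and 2 fell, where 2036 of 14112 genes were called in all. Other alternative fits of all 4 libraries had 3 to 5 falls. PMEPA1, which sequesters receptor-regulated SMADs, rose from 42.8 ± 0.856 to 54.6 ± 1.29 FPKM (log2 fold change 0.33). STRAP, a receptor-bound scaffold that helps SMAD7, fell from 89.0 ± 0.325 to 74.7 ± 4.16 FPKM (log2 fold change -0.27, edgeR adjusted p = 0.000238). TRAP1 also fell (log2 fold change -0.31), but gene ID 10131 is a mitochondrial chaperone whose symbol was formerly shared with a SMAD4 adaptor, so it is no SMAD regulator. Without TRAP1 the list has 18 tested genes, of which 1 rose and 4 fell (27.8% called). Among 8 phosphatases PDP1, a mitochondrial enzyme also described as a SMAD1 phosphatase, fell from 3.52 ± 0.0141 to 2.50 ± 0.290 FPKM (log2 fold change -0.49, edgeR adjusted p = 0.0331) and 7 were not called (12.5% called). The PDP1 call was lost without empty-vector replicate 1 (edgeR adjusted p = 0.108), control replicate 2 (0.0929) or replicate 2 of HOXD13 (0.229).

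Of 14 other ubiquitin ligases and deubiquitinases, 1 fell and 13 were not called (7.14% called, against 16.0% of all genes). USP15, which removes ubiquitin from SMADs, was at 10.6 and 13.1 FPKM with the empty vector and at 10.5 and 9.84 FPKM with HOXD13 (log2 fold change -0.23, edgeR adjusted p = 0.0301). That call was lost without empty-vector replicate 2 (edgeR adjusted p = 0.517, log2 fold change -0.11) or HOXD13 replicate 2 (0.0779), and with the RSEM lengths as offsets (0.0847). Of 19 coactivators and partners, the coactivator gene NCOA3 rose (log2 fold change 0.26, edgeR adjusted p = 0.0397), the remodelling ATPase gene SMARCA4 fell (-0.14, adjusted p = 0.0158) and 17 were not called (10.5% called). The NCOA3 call did not survive leaving out replicate 2 of the controls (edgeR adjusted p = 0.304) or of HOXD13 (0.163). SMARCA4 was lost without empty-vector replicate 1 (0.111), control replicate 2 (0.0764) or replicate 2 of HOXD13 (0.0679). Of 14 kinases, including the type I receptors, BMPR1B and ACVR1B rose by 0.33 and 0.21 on the log2 scale and 12 were not called (14.3% called). BMPR1B was lost without empty-vector replicate 1 (edgeR adjusted p = 0.0814). ACVR1B, with an adjusted p of 0.0478, was lost without empty-vector replicate 1 (0.153), control replicate 2 (0.148) or replicate 2 of HOXD13 (0.434), and with the RSEM lengths as offsets (0.0578).

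Both readout lists, described here beside the transducers, had median log2 fold changes of opposite sign, -0.33 for BMP-SMAD readouts and 0.11 for TGF-beta-SMAD readouts, against 0.00379 over all genes. Their difference was not tested. Of 12 tested BMP-SMAD readouts, 3 fell, 0 rose and 9 were not called, and SMAD6 is one of the 3 (25% called, against 16.0% of all genes). SMAD6, SMAD7 and SMAD9 are themselves in this list, and SMAD7 is in the other. The BMP-SMAD median was -0.18 over the 9 genes with a mean of at least 50 counts, and -0.09 over the 2 genes with an adjusted p from DESeq2. ID3, a dominant-negative helix-loop-helix gene, was at 11.5 and 11.6 FPKM with the empty vector and at 7.31 and 6.51 FPKM with HOXD13. ID2, of the same family, was at 4.32 and 4.61 FPKM against 2.70 and 2.16 FPKM. Its call was lost without empty-vector replicate 1 (edgeR adjusted p = 0.107), control replicate 2 (0.160) or replicate 2 of HOXD13 (0.173). Of 11 TGF-beta-SMAD readouts, 3 rose, 1 fell and 7 were not called (36.4% called). PMEPA1, counted above as the rise among the inhibitors, is in this list too. Of the 3 rises it had the smallest adjusted p (edgeR, 9.95e-07). The fall was that of FN1, the fibronectin gene, at 29.8 and 30.6 FPKM with the empty vector and 25.2 and 24.4 FPKM with HOXD13 (log2 fold change -0.29, edgeR adjusted p = 6.37e-06). LTBP3, which binds latent TGF-beta, was at 24.9 and 26.1 FPKM with the empty vector and at 31.2 and 32.8 FPKM with HOXD13 (log2 fold change 0.32, edgeR adjusted p = 4.69e-05). The related LTBP2 (log2 fold change 0.84, edgeR adjusted p = 0.0172) was no longer called without control replicate 2 (0.123) or replicate 1 of HOXD13 (0.0733). The TGF-beta-SMAD list median was 0.01 at a mean of at least 50 counts, 0.05 without empty-vector replicate 2, 0.01 without HOXD13 replicate 1 and 0.02 without HOXD13 replicate 2.

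**Figure D5:**
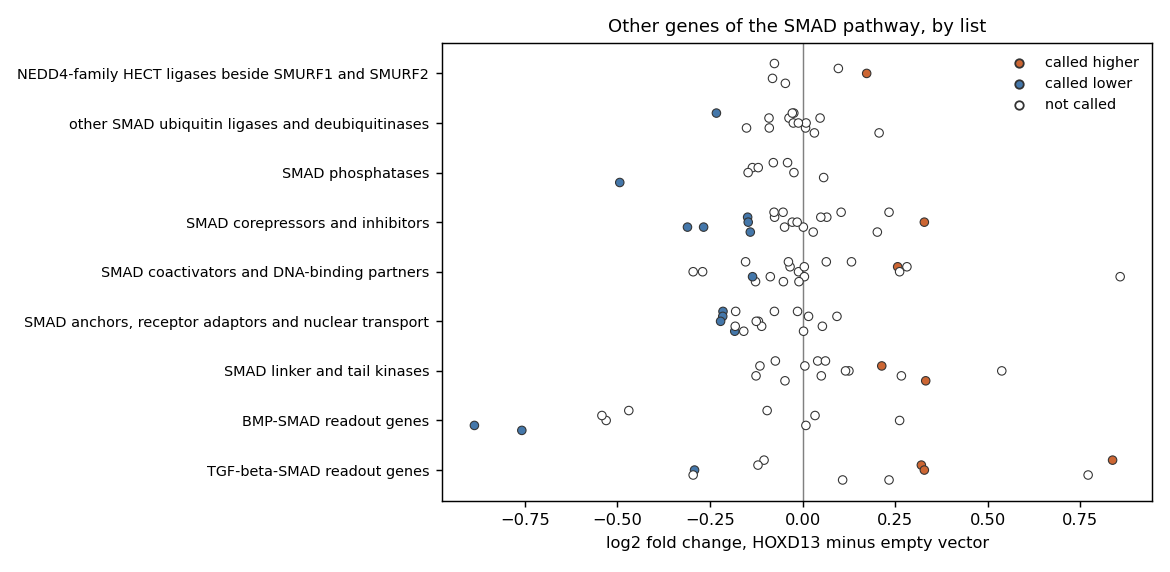
Log2 fold change, HOXD13 minus empty vector (horizontal axis), of the tested genes of each list without the 10 SMAD and SMURF genes (rows, with dots offset vertically for legibility), orange where called higher, blue where called lower and white where not called. Most dots are white, with 7 genes called higher and 15 lower, TRAP1 included, among 110, and ID2 is the leftmost at -0.89.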

How the data were processed

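RNA was taken with Trizol, treated with DNase and enriched with oligo(dT), per the labels' protocols. Bowtie2, RSEM, hg18 and hg19 are listed, per the submitters' processing notes, without tool versions or a statement of which build served which step. Each deposited library table gives RSEM expected counts, FPKM and gene lengths, per the file headers. A gene absent from a library's table was set to 0. A deposited table of all 4 libraries holds the same FPKM values and the symbols.

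Expected counts were rounded and tested by quasi-likelihood in edgeR (version 4.0.16 under R 4.3.3; robust, TMM, filterByExpr) over 14112 genes, with Benjamini-Hochberg adjustment and calls at an adjusted p under 0.05. Standard errors come from the fold change and its F statistic, and 95% intervals use the test's degrees of freedom. The fit was tested on simulated data. Replicates differed by more than sampling noise (chi-square per degree of freedom 1.57 and 1.76). Alternatives used DESeq2 1.42.0, limma 3.58.1 and mgcv 1.9.3. Named genes are the 10 members, HOXD13, up to 3 called genes per list by size of change (or 1 with the smallest p where none was called), and the 3 genes nearest to SMAD1. PDGFRB, KDR, CD3E, ITGAM, COL1A1, CD68, PTPRC, PECAM1, FN1, IPO7, IPO8, XPO4, RANBP3 and NUP214 were named outside that rule, after their values were seen. The members and lists were chosen with earlier results of these data known. Promoter sequences are RefSeq's (GRCh38.p14), matched by symbol.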

Additional observations from a re-analysis of the deposited data

How the results depend on the processing

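Counts over all genes moved most with the DESeq2 Wald test and the limma fits. The test and the genes covered changed together there, and with limma the input changed too. Against 1116 higher and 1144 lower, the DESeq2 Wald test called 467 and 598 among 6364 genes with an adjusted p, and of 13520 genes tested on FPKM, limma on log2(FPKM + 1) called 398 and 261, and limma on log2(FPKM + 0.1) called 382 and 265. With 1 library left out, 714 to 1064 genes were lower and 751 to 927 higher. SMAD6 was the 1 member called, and the count of members called lower was 0 with both limma fits, with the RSEM lengths as offsets and with the DESeq2 Wald test, which gave SMAD6, SMAD1, SMAD3, SMAD7, SMURF1 and SMURF2 no adjusted p. It was 0 to 1 with a library left out. The SMAD6 log2 fold change was -0.31, -0.38 and -0.41 with limma at both pseudocounts and with length offsets. Values near 0 changed sign without being called. SMAD5 was at -0.0012 with the DESeq2 Wald test and -0.067 to 0.068 with a library left out. SMAD7 was at 0.042 and 0.057 with limma, 0.041 with length offsets and -0.26 to 0.012 with a library left out. SMURF2 was at -0.00082 with DESeq2 size factors, -0.0021 without a low-count filter, -0.018 with the expression trend removed and -0.11 to 0.098 with a library left out. The causes were not tested.

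The labels give both groups the replicate numbers 1 and 2 but do not tie them to a shared culture or day. Deviations of same-numbered libraries correlated at 0.0703 across genes. With the replicate number as a block 2523 genes were called against 2260, and SMAD6 (log2 fold change -0.59) was again the 1 member called. At 58 to 95 counts per library SMAD6 and SMAD7 are the members that depth limits most.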

Other observations

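Among 9709 other tested genes averaging 5 FPKM or more, the 3 whose log2 CPM over the 4 libraries lay nearest to that of SMAD1, each centred on its own mean, were CCDC137, the replication helicase gene MCM7 and the arginine methyltransferase gene PRMT5. Their root mean square distances were 0.0024, 0.0077 and 0.011 log2 units. Their log2 fold changes of -0.31 in each case were called (edgeR adjusted p = 0.00369, 7.21e-07 and 1.12e-05), while that of SMAD1, also -0.31, was not (0.0795). The equal fold changes follow from how these genes were picked, since the distance includes the difference between the groups. In all, 249 genes lay within 0.05 log2 units of SMAD1, so a likeness over 4 libraries sets few genes apart.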
